A study of Mus musculus with 12 samples.

Results

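The genes described here are 10 chemokines, the 5 CC chemokines Ccl2, Ccl3, Ccl4, Ccl5 and Ccl7 and the 5 CXC chemokines Cxcl1, Cxcl2, Cxcl3, Cxcl10 and Ppbp. They were taken by gene symbol from the probe sets of the array, and all 10 were found among the 24704 genes with a symbol. The arrays came from cultured ventricular myocytes of adult mice, isolated by Langendorff perfusion, in which the heart is perfused through the aorta with digesting enzymes. The 4 groups were wild-type (WT) myocytes without treatment, WT myocytes with 100 nM Iso (isoprenaline, an agonist of beta-adrenergic receptors) for 24 h, and myocytes of double-knockout (DKO) mice without and with the same treatment. In DKO mice the genes for CaMKII (calcium/calmodulin-dependent protein kinase II) delta and gamma are knocked out. The study asked how gene expression after Iso depends on CaMKII. Each group had 3 arrays from 3 mice, and each of the 6 mice gave an untreated and an Iso-treated culture, so the number of arrays limits the precision of every value. Arrays and mice are numbered 1 to 3 within a genotype, and an untreated and an Iso-treated array of the same number are from the same mouse. The sources used here do not say how, or in which cells, these genes were deleted.

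Chemokines are small secreted proteins that bind G protein-coupled receptors on leukocytes and guide them along gradients into tissue. CC chemokines attract mainly monocytes and T cells, and the CXC chemokines Cxcl1, Cxcl2, Cxcl3 and Ppbp attract neutrophils through the receptor Cxcr2. Many chemokine genes are switched on by the transcription factor NF-kB, and in the heart they are made by resident macrophages, endothelial cells, fibroblasts and stressed myocytes.

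Expression is given as log2 signal after RMA, the normalisation the authors applied, so a difference of 1 is a doubling. A gene was tested where its signal lay above the median of its array, 3.31 to 3.32, on at least 3 of the 12 arrays, and 13737 genes were. All 10 chemokines lay above the median on all 12 arrays. Levels are compared within a gene only. The targeted gene Camk2g read 4.78 to 5.80 on the WT arrays and 3.57 to 4.20 on the DKO arrays, while Camk2d read 7.94 to 8.42 and 7.36 to 7.98, with a DKO minus WT difference that did not pass (adjusted p = 0.485 over mouse means). Markers of ventricular myocytes, 11 of 11, lay above the median on all arrays, and so did 12 of 12 endothelial markers. Untreated DKO array 3 stood apart, with a median correlation to the other arrays of 0.969 across genes, against 0.987 to 0.990 for the others. Because each array measured the RNA of a whole culture, fewer cells of a type and less RNA per cell cannot be told apart.

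Ppbp was 2.83-fold and Cxcl3 2.75-fold lower in DKO than in WT mice, and Ccl5 was 2.50-fold lower in DKO than in WT cultures after Iso. These calls were kept in 20 of 25 other settings for Ppbp, 12 of 25 for Cxcl3 and 20 of 20 for Ccl5. Ccl3 was 1.80-fold higher in DKO mice over the mean of untreated and Iso-treated cultures, a call that 6 of 25 other settings kept. Its log2 difference was 1.78 without Iso, which did not pass, and -0.08 with Iso. The 10 genes were chosen with earlier results of these data known. Their counts beside the shares of all genes, here and below, are descriptions and no test of the list. With the arrays of each mouse averaged, so that 3 DKO mice were set against 3 WT mice, Ppbp and Cxcl3 fell and Ccl3 rose, which makes 3 of 10 chemokines past an adjusted p of 0.05 (limma, Benjamini-Hochberg over the genes tested), against 0.291% of all genes tested (0.182% fell and 0.109% rose). Without Iso 1 of 10 passed, Ppbp, against a background of 0.204%. With Iso 3 of 10 passed, Ccl5, Cxcl3 and Ppbp, all lower in DKO, against a background of 0.306% (0.197% lower). At an unadjusted p under 0.05 there were 6 of 10 over mouse means (background 9.68%), 4 of 10 without Iso (13.8%) and 5 of 10 with Iso (7.91%). The genotypes did not overlap, with DKO lower, for 5 of 10 over mouse means (8.66% of all genes), 4 of 10 without Iso (9.21%) and 6 of 10 with Iso (8.56%). With DKO higher they did not overlap for Ccl3 over mouse means (7.16%) and for Ccl3 and Ccl4 without Iso (7.84%). The median difference of the 10 genes was -0.24 over mouse means, -0.14 without Iso and -0.43 with Iso, against 0.00 with Iso over all genes tested. With Iso, 10 of 10 differences lay below 0, as did 49.0% of those of all genes tested. Over all 12 arrays, every DKO value lay below every WT value for 2 of the 10 genes, Ppbp and Cxcl3, and for 0.677% of all genes tested.

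**Figure D1:**
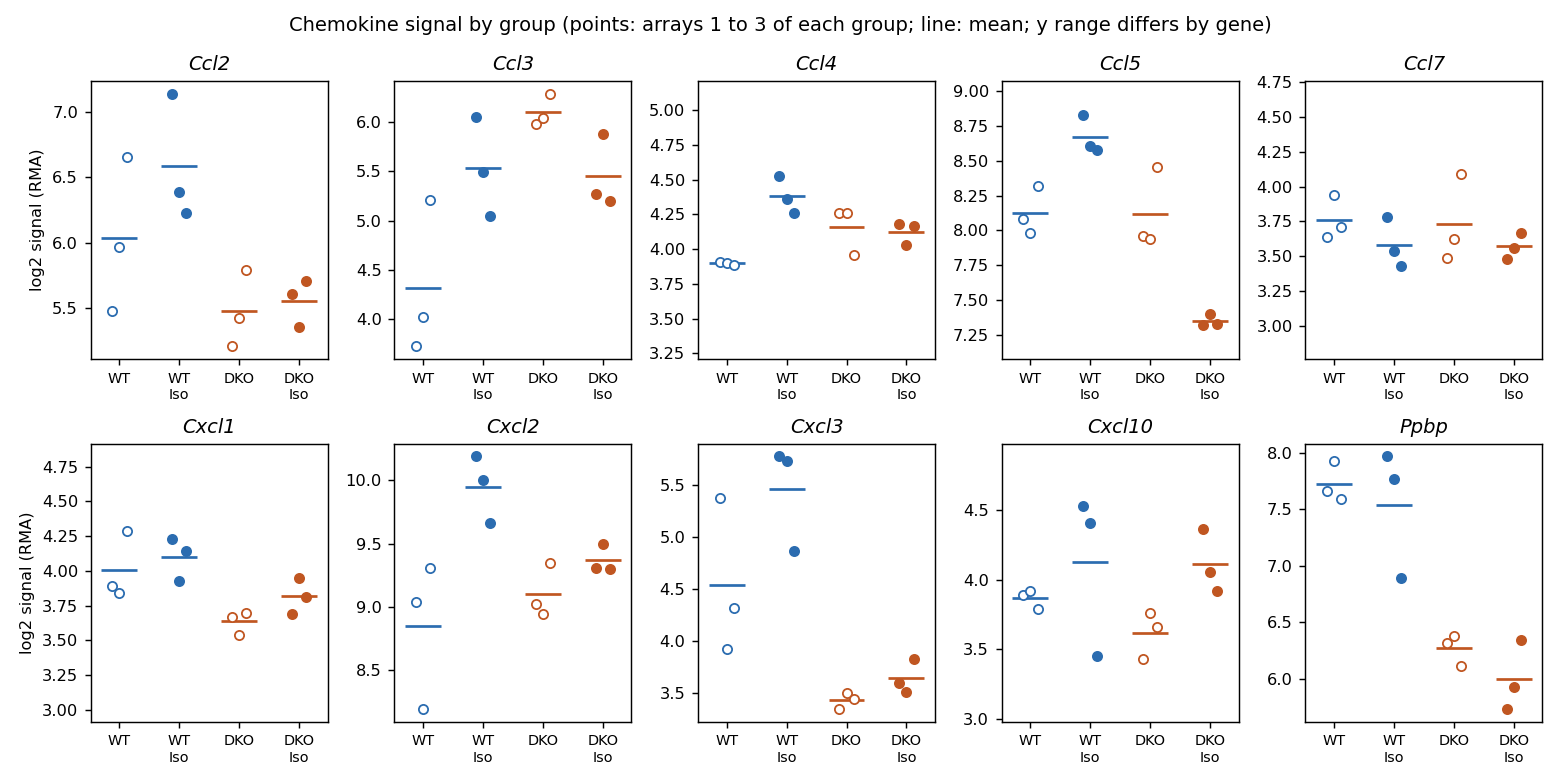
Log2 signal (RMA) of each of the 10 chemokines on the 12 arrays, with a panel for each gene, open circles for untreated and filled circles for Iso-treated cultures, and a line at each group mean of 3 arrays. Ppbp and Cxcl3 read lower on all 6 DKO arrays than on any WT array, and Ccl5 is lowest on the 3 Iso-treated DKO arrays, at 7.32 to 7.40.

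Ppbp encodes platelet basic protein, the precursor of a chemokine that is stored in platelet granules and attracts neutrophils through Cxcr2. It read 7.66, 7.93 and 7.59 in WT cultures without Iso and 7.97, 7.77 and 6.89 in WT cultures with it. It read 6.32, 6.38 and 6.11 in DKO cultures without Iso and 5.73, 5.93 and 6.34 in DKO cultures with it. The lowest WT array, at 6.89, was still above the highest DKO array, at 6.38. Over mouse means Ppbp was 6.13 ± 0.101 in DKO mice and 7.63 ± 0.342 in WT mice (SD, n = 3 each), a difference of -1.50 ± 0.16 (SE, 95% interval -1.87 to -1.13), or 2.83-fold lower (limma adjusted p = 0.0123). The difference was -1.46 ± 0.24 without Iso (limma adjusted p = 0.0312) and -1.55 ± 0.24 with Iso (limma adjusted p = 0.0206). Iso moved Ppbp by -0.18 ± 0.24 in WT and -0.27 ± 0.24 in DKO cultures, and neither passed. The call over mouse means was kept under 20 of 25 other settings and lost without untreated WT array 3 (adjusted p = 0.118), Iso-treated DKO array 3 (0.122), WT mouse 1 (0.0649), WT mouse 2 (0.0791) or DKO mouse 1 (0.0673). Without Iso it was kept in 10 of 20 settings and lost without any untreated WT array or without untreated DKO array 1 or 3 or Iso-treated DKO array 1 or 2 (adjusted p 0.0510 to 0.164), and also with no filter (0.0754), a filter at the 25th percentile (0.0551) or only the 6 arrays compared (0.0624). With Iso it was lost without Iso-treated WT array 1 or 2 or Iso-treated DKO array 1 or 2 (0.0950 to 0.129).

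Cxcl3 encodes a neutrophil attractant closely related to Cxcl1 and Cxcl2. It read 5.37, 3.93 and 4.32 in WT cultures without Iso, 5.77, 5.73 and 4.86 in WT cultures with it, 3.35, 3.50 and 3.45 in DKO cultures without Iso and 3.60, 3.51 and 3.83 in DKO cultures with it. The WT arrays spread widely and the DKO arrays lay within a narrow band just above the array median. Over mouse means Cxcl3 was 3.54 ± 0.0863 in DKO and 5.00 ± 0.511 in WT mice (SD, n = 3 each), a difference of -1.46 ± 0.22 (SE), or 2.75-fold lower (limma adjusted p = 0.0456). With Iso it was -1.81 ± 0.32, or 3.50-fold lower (limma adjusted p = 0.0327), and without Iso -1.11 ± 0.32 (limma adjusted p = 0.179). All 3 WT mice had more Cxcl3 after Iso, by 0.40, 1.80 and 0.53, and the WT Iso difference of 0.91 ± 0.32 did not pass (limma adjusted p = 0.603). The call over mouse means was kept in 12 of 25 other settings and lost without untreated WT array 1, Iso-treated WT array 2 or 3, untreated DKO array 1 or 2, any Iso-treated DKO array, WT mouse 2, DKO mouse 1 or DKO mouse 2 (adjusted p 0.0553 to 0.324), and also without a filter (0.137) or with one at the 25th percentile (0.0903). With Iso it was kept in 11 of 20 settings and lost without untreated WT array 3, Iso-treated WT array 1 or 2, untreated DKO array 1 or any Iso-treated DKO array (0.0521 to 0.191), and also without a filter (0.0800) or with one at the 25th percentile (0.0533).

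Cxcl1 and Cxcl2, neutrophil attractants induced early in inflammation, did not pass in any of the 6 comparisons. Cxcl1 read 3.89, 3.84 and 4.29 in WT cultures without Iso, 4.23, 3.93 and 4.14 in WT cultures with it, 3.67, 3.54 and 3.70 in DKO cultures without Iso and 3.69, 3.95 and 3.81 in DKO cultures with it. The DKO mouse means lay below the WT mouse means, with a difference of -0.33 ± 0.11 (limma adjusted p = 0.363). Cxcl2 read 9.04, 8.19 and 9.31 in WT cultures without Iso, 10.19, 9.998 and 9.66 in WT cultures with it, 9.02, 8.94 and 9.35 in DKO cultures without Iso and 9.31, 9.50 and 9.30 in DKO cultures with it. The Iso-treated WT arrays were the highest of the 12 for Cxcl2 and did not overlap any other group. The Iso difference was 1.10 ± 0.24 in WT, or 2.14-fold (limma adjusted p = 0.333), and 0.27 ± 0.24 in DKO cultures, and DKO minus WT with Iso was -0.58 ± 0.24 (limma adjusted p = 0.573). Cxcl1, Cxcl2 and Cxcl3 are similar in sequence, and signal from one on the probe set of another was not tested.

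Ppbp, Cxcl3, Cxcl1 and Cxcl2 lie near each other on chromosome 5, and their promoters are shown because the first pair fell in DKO cultures and the others did not pass. The sequences are the 100 bases before each RefSeq transcription start in build GRCm38.p6, all on the plus strand: Ppbp at chr5:90768418-90768517, Cxcl3 at chr5:90786001-90786100, Cxcl1 at chr5:90891145-90891244 and Cxcl2 at chr5:90903799-90903898. Capitals mark the NF-kB word GGAATTTCC and the TATA word TATAAA.
Ppbp: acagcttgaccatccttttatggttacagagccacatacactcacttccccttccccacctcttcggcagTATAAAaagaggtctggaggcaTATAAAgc
Cxcl3: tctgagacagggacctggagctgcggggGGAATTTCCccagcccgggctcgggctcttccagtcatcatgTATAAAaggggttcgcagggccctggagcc
Cxcl1: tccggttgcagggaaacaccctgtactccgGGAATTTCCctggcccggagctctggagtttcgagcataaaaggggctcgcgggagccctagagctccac
Cxcl2: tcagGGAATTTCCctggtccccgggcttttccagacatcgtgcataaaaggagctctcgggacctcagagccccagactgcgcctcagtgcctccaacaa
RefSeq promoters were at hand for 6 of the 10 chemokines, and the 250 bases before the start were searched. GGAATTTCC, searched on both strands, was in Cxcl3 (-72 to -64, counted back from -1 beside the start), Cxcl1 (-70 to -62), Cxcl2 (-96 to -88) and, as its reverse complement, Cxcl10 (-158 to -150), and in 94 of 32851 promoters (0.286%). In Ppbp no match to it was found. TATAAA, searched on the plus strand, was in Ppbp (-30 to -25 and -8 to -3) and Cxcl3 (-30 to -25), and in 7.59% of all promoters. The search took exact letters only. The Cxcl1 and Cxcl2 sequences shown hold cataaa, which differs from TATAAA only in its first letter. Cxcl10 held the second NF-kB word GGACTTCCC (-102 to -94; 0.335% of promoters), the interferon response word GAAANNGAA (-213 to -205; 7.13%) and the AP-1 word TGANTCA (-74 to -68; 6.75%). Ccl3 held the reverse complement of GAAANNGAA at -39 to -31. Ppbp held TGANTCA at -204 to -198, outside the 100 bases shown. The cyclic AMP response word TGACGTCA, in 1.55% of all promoters, was in none of the 6. All but TATAAA were searched on both strands, and a match is a description of letters, not of binding.

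Other chemokine genes lie between and beside these in the RefSeq gene order on chromosome 5, and this stretch was examined after the values of Ppbp and Cxcl3 had been seen. Of the 21 genes from 10 before to 10 after Ppbp, 13 were bright enough to test and 2 passed over mouse means, Ppbp and Cxcl3. Cxcl5, a neutrophil attractant on one side of Ppbp, differed by -0.36 ± 0.11 (limma adjusted p = 0.295). Pf4, platelet factor 4, which lies between Ppbp and Cxcl3, differed by -0.69 ± 0.15 (limma adjusted p = 0.182). Pf4 read 8.81, 8.66 and 9.05 in WT cultures without Iso, 9.13, 8.88 and 8.77 in WT cultures with it, 8.44, 7.88 and 8.68 in DKO cultures without Iso and 7.84, 7.94 and 8.35 in DKO cultures with it. Its highest DKO array, at 8.68, lay just above its lowest WT array, at 8.66. The non-chemokine genes tested in this stretch ranged from -0.22 (Cox18) to 0.09 (Afp), and Mthfd2l, next after Cxcl2, differed by -0.04 ± 0.10.

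**Figure D2:**
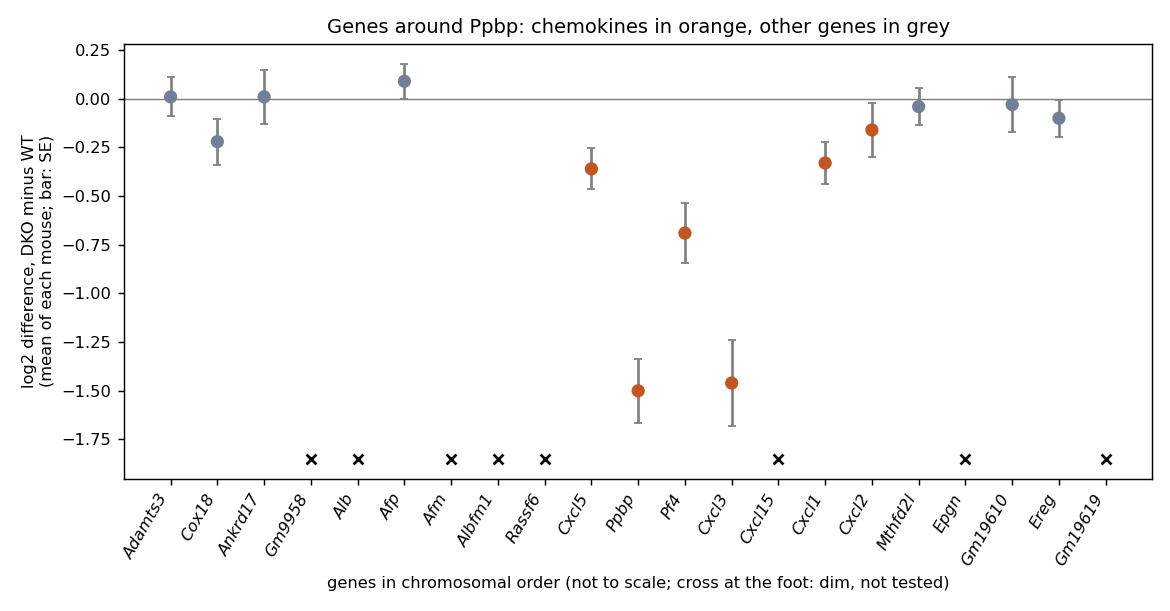
DKO minus WT log2 difference over mouse means (points, with SE bars) for Ppbp and the 10 genes to each side of it in chromosomal order, chemokines in orange and other genes in grey, and a cross at the foot for genes too dim to test. Ppbp at -1.50 and Cxcl3 at -1.46 lie lowest, with Pf4 at -0.69 between them, and the other genes tested lie between -0.36 and 0.09.

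Ccl5, a T cell and monocyte attractant, was lower in DKO than in WT cultures after Iso and differed little between genotypes without it. It read 8.08, 7.98 and 8.32 in WT cultures without Iso and 8.83, 8.61 and 8.58 in WT cultures with it. It read 7.96, 7.94 and 8.46 in DKO cultures without Iso and 7.32, 7.40 and 7.33 in DKO cultures with it. The untreated groups overlapped, the Iso-treated WT arrays lay above both of them and the Iso-treated DKO arrays below. With Iso, Ccl5 was 7.35 ± 0.0434 in DKO and 8.67 ± 0.135 in WT cultures (SD, n = 3 each), a difference of -1.32 ± 0.16 (SE, 95% interval -1.66 to -0.99), or 2.50-fold lower (limma adjusted p = 0.00230). That call was kept in 20 of 20 other settings (adjusted p 7.79e-05 to 0.0233). Without Iso the difference was -0.01 ± 0.16 (95% interval -0.34 to 0.33, limma adjusted p = 0.991). Over mouse means it was -0.67 ± 0.11 (limma adjusted p = 0.0634), and with the mouse as a random block it passed (adjusted p = 0.0205), as it did without untreated WT array 2 (0.0452), untreated DKO array 3 (0.00648) or DKO mouse 3 (0.0154), or with array weights (0.00478).

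Iso moved Ccl5 up in each WT mouse, by 0.75, 0.63 and 0.26, and down in each DKO mouse (-0.65, -0.54 and -1.13). Opposite signs of this kind were seen for 1.97% of all genes tested. The mean Iso difference was 0.55 ± 0.16 in WT (limma adjusted p = 0.460) and -0.77 ± 0.16 in DKO cultures (limma adjusted p = 0.0620). The interaction, the Iso difference in DKO minus that in WT, was -1.32 ± 0.22 (95% interval -1.79 to -0.84), the 5th smallest p of 13737 genes, and did not pass (limma adjusted p = 0.102). It passed without untreated DKO array 2 (adjusted p = 0.0447) or array 3 (0.0481) or with array weights (0.00955). The Iso difference in DKO passed without untreated DKO array 2 (0.0315) or with array weights (0.0112). For the interaction, 11 of the 12 markers of endothelial cells lay below 0 (median -0.51), against 49.2% of all genes tested, and 0 passed. Their median DKO minus WT difference was 0.42 without Iso, with 10 of 12 above 0. With Iso it was -0.03, with 6 of 12 above 0. The part of endothelial cells in the Ccl5 values was not tested.

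**Figure D3:**
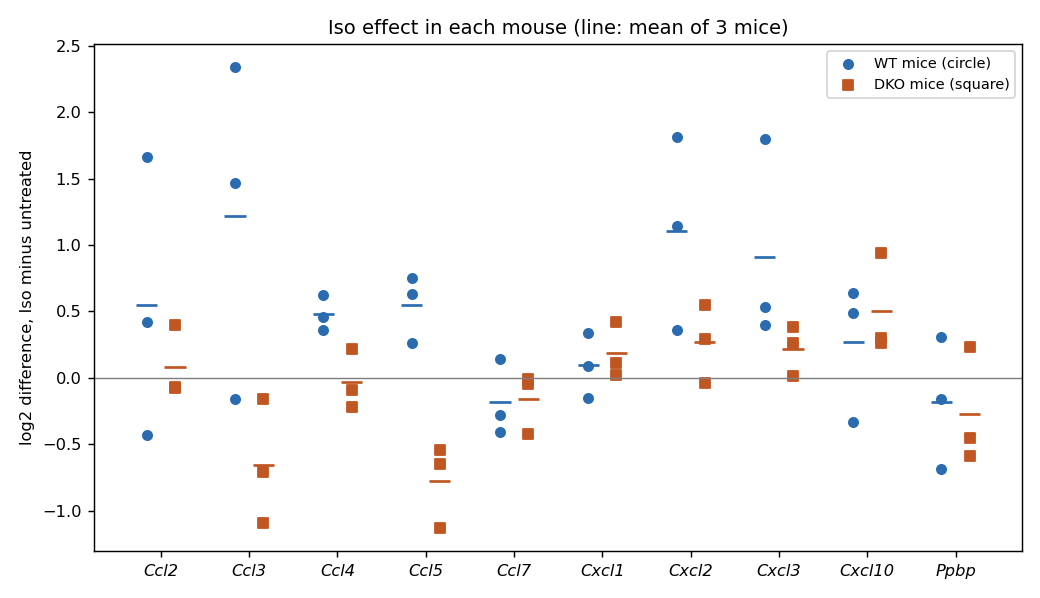
Iso minus untreated log2 difference of each mouse for the 10 chemokines, with circles for WT mice, squares for DKO mice and a line at the mean of 3 mice. Ccl5 is above 0 in all 3 WT mice (0.26 to 0.75) and below 0 in all 3 DKO mice (-1.13 to -0.54). For Ccl2, Ccl3, Ccl7, Cxcl1, Cxcl10 and Ppbp the WT mice lie on both sides of 0.

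Ccl3 and Ccl4, the macrophage inflammatory proteins 1-alpha and 1-beta, are made by activated macrophages and attract monocytes. Ccl3 read 3.72, 4.02 and 5.21 in WT cultures without Iso, 6.05, 5.49 and 5.05 in WT cultures with it, 5.98, 6.04 and 6.29 in DKO cultures without Iso and 5.27, 5.88 and 5.20 in DKO cultures with it. The untreated WT arrays were low and varied, and all 3 untreated DKO arrays lay above them. The difference without Iso was 1.78 ± 0.35 (SE), or 3.44-fold higher in DKO, and did not pass (limma adjusted p = 0.0776), although it passed without untreated WT array 3 (0.0119), without untreated DKO array 2 (0.0492) or with array weights (0.00873). With Iso it was -0.08 ± 0.35. Over mouse means Ccl3 was 5.78 ± 0.167 in DKO and 4.92 ± 0.190 in WT mice (SD, n = 3 each), a difference of 0.85 ± 0.13 that passed narrowly (limma adjusted p = 0.0488). That call was kept in 6 of 25 other settings, was lost with the mouse as a random block (adjusted p = 0.206), without a filter (0.107) or with one at the 25th percentile (0.0780), and was lost without any single array other than Iso-treated DKO array 1 and any mouse other than DKO mouse 3 (0.0505 to 0.723). The mean level of the 12 endothelial markers was 6.08 to 6.59 on the untreated DKO arrays and 5.80 to 6.05 on the untreated WT arrays, and their part in the Ccl3 values was not tested.

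Iso moved Ccl3 by 2.34, 1.47 and -0.16 in the WT mice and by -0.71, -0.16 and -1.09 in the DKO mice. The mean of 1.21 ± 0.35 in WT, or 2.32-fold, did not pass (limma adjusted p = 0.460), nor did the interaction of -1.86 ± 0.49 (limma adjusted p = 0.319). Ccl4 read 3.91, 3.90 and 3.89 in WT cultures without Iso, 4.53, 4.36 and 4.26 in WT cultures with it, 4.26, 4.26 and 3.96 in DKO cultures without Iso and 4.18, 4.03 and 4.17 in DKO cultures with it. The Iso-treated WT arrays were above the untreated ones for Ccl4 in every mouse, by 0.62, 0.46 and 0.36, with a mean of 0.48 ± 0.12 (limma adjusted p = 0.433). Over mouse means the Ccl4 difference between genotypes was 0.00 ± 0.09 (95% interval -0.21 to 0.22).

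Ccl2 and Ccl7, the monocyte chemoattractant proteins 1 and 3, recruit monocytes through Ccr2. Ccl2 read 5.48, 5.97 and 6.66 in WT cultures without Iso, 7.14, 6.39 and 6.23 in WT cultures with it, 5.21, 5.43 and 5.79 in DKO cultures without Iso and 5.61, 5.36 and 5.71 in DKO cultures with it. Its DKO arrays lay in the lower part of the WT range or below it, and with Iso the genotypes did not overlap. The DKO minus WT difference was -0.56 ± 0.29 without Iso, -1.02 ± 0.29 with Iso (limma adjusted p = 0.261) and -0.79 ± 0.13 over mouse means (95% interval -1.08 to -0.50), which did not pass (limma adjusted p = 0.0617). It passed over mouse means without untreated WT array 2 (0.0412), untreated DKO array 3 (0.0104) or DKO mouse 3 (0.0116), and with array weights (0.00379). Iso moved Ccl2 by 1.66, 0.42 and -0.43 in the WT mice and by 0.40, -0.07 and -0.08 in the DKO mice, so the direction varied within each genotype. Ccl7 read 3.43 to 3.94 on the WT arrays and 3.48 to 4.09 on the DKO arrays, the groups overlapped in every comparison, and its difference over mouse means was -0.02 ± 0.12 (95% interval -0.30 to 0.26).

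Cxcl10 attracts T cells through Cxcr3 and is induced by interferon. It read 3.89, 3.92 and 3.79 in WT cultures without Iso, 4.53, 4.41 and 3.45 in WT cultures with it, 3.43, 3.76 and 3.66 in DKO cultures without Iso and 4.37, 4.06 and 3.92 in DKO cultures with it. The untreated DKO arrays lay below the untreated WT arrays, and Iso-treated WT array 3 was far below the others of its group. The Iso difference was 0.50 ± 0.24 in DKO (limma adjusted p = 0.280), where all 3 mice were higher after Iso, and 0.27 ± 0.24 in WT cultures, where 2 of 3 were. The genotype difference over mouse means was -0.13 ± 0.16 (95% interval -0.49 to 0.23).

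**Figure D4:**
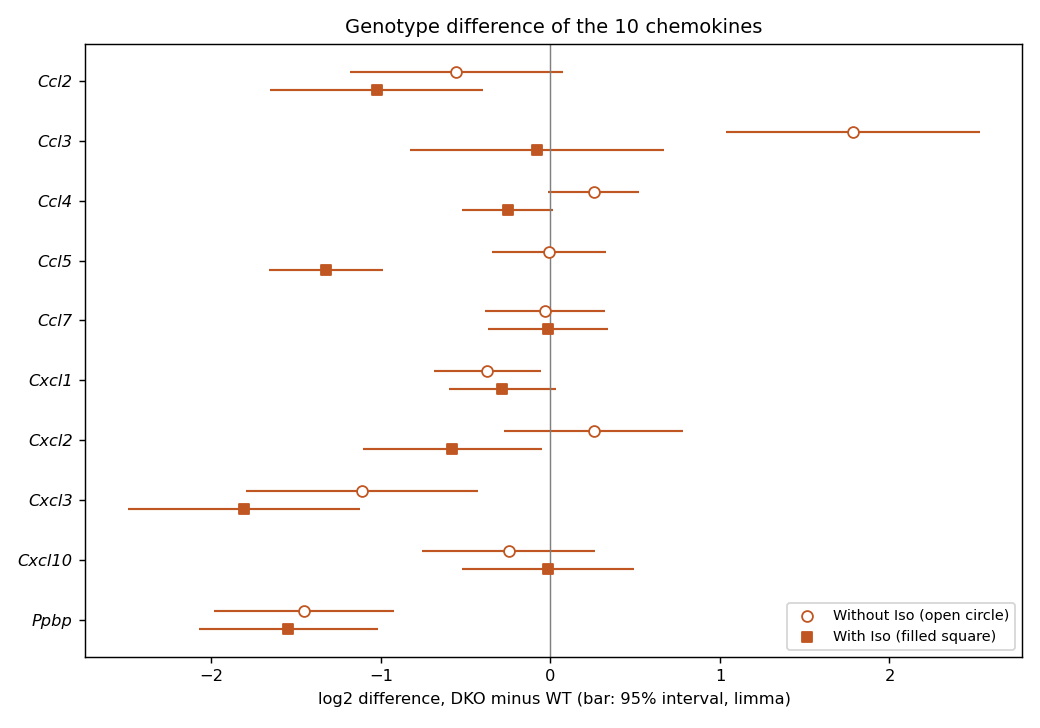
DKO minus WT log2 difference of the 10 chemokines without Iso (open circles) and with Iso (filled squares), with 95% intervals from limma. Ppbp and Cxcl3 lie below 0 in both, Ccl5 lies at -1.32 with Iso and at -0.01 without, and Ccl3 lies above 0 without Iso (1.78).

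Iso itself passed for 0 of the 10 chemokines in WT (limma, background 0.0218%) and 0 of 10 in DKO cultures (background 0.0510%), and the interaction passed for 0 of 10 (background 0.0146%). At an unadjusted p under 0.05 there were 5 of 10 in WT (Ccl3, Ccl4, Ccl5, Cxcl2 and Cxcl3, all higher after Iso), against 6.70% of all genes tested. In DKO there was 1 of 10, Ccl5, against 18.4%, and for the interaction 4 of 10 (Ccl3, Ccl4, Ccl5 and Cxcl2, all below 0), against 10.1%. Groups did not overlap in WT for 3 of 10 genes higher after Iso, Ccl4, Ccl5 and Cxcl2, against 7.16% of all genes tested. In DKO 2 of 10 were higher without overlap, Cxcl3 and Cxcl10, against 10.8%, and 2 of 10 lower, Ccl3 and Ccl5, against 10.7%. All 3 WT mice were higher after Iso for 4 of 10 genes (14.8% of all genes tested), Ccl4, Ccl5, Cxcl2 and Cxcl3, and all 3 DKO mice were lower for 3 of 10 (18.8%), Ccl3, Ccl5 and Ccl7. The median Iso difference of the 10 was 0.51 in WT and 0.03 in DKO, against -0.01 and 0.01 over all genes tested.

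No other chemokine ligand or receptor that was tested passed in any comparison. Of 28 other chemokine ligands, 26 were measured and 17 tested, and 0 passed in any comparison by limma. Over mouse means 3 of the 17 had an unadjusted p under 0.05, against 9.68% of all genes tested. Of 23 receptors, 22 were measured, 10 were tested and 0 passed. Over mouse means 1 of the 10 had an unadjusted p under 0.05, against the same 9.68%. Ccr1, Ccr2 and Cxcr2, receptors for Ccl3 and Ccl5, for Ccl2 and Ccl7, and for Ppbp and Cxcl1 to Cxcl3, lay below the array median on all 12 arrays, as did Ackr1, a decoy receptor. Cxcr3, the receptor of Cxcl10, differed by -0.19 ± 0.09 over mouse means (limma adjusted p = 0.563). Of the NF-kB genes 13 were tested and 0 passed. Between genotypes, 3 had an unadjusted p under 0.05 without Iso (background 13.8%), 1 with Iso (7.91%) and 0 over mouse means (9.68%). For the Iso difference there were 1 in WT (6.70%) and 5 in DKO (18.4%), and for the interaction 3 (10.1%). Among 17 tested inducers and sensors 1 passed, Cd14, a co-receptor for bacterial lipopolysaccharide. With Iso it was lower by 0.92 in DKO than in WT cultures (SE 0.17, limma adjusted p = 0.0402). Its mean was 6.34 without and 7.01 with Iso in WT, and 6.16 and 6.08 in DKO cultures. Il1b, which encodes the cytokine interleukin 1 beta, differed between genotypes by -0.93 ± 0.26 with Iso (limma adjusted p = 0.241).

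Markers of cells that could carry chemokine RNA were at these levels. Of 10 platelet and megakaryocyte markers measured, 4 never rose above the array median, Itgb3, Gp1bb, Gp5 and Tubb1. The mean level of the 10 was 4.15 to 4.23 in untreated WT, 4.23 to 4.37 in Iso-treated WT, 4.03 to 4.20 in untreated DKO and 4.06 to 4.22 in Iso-treated DKO cultures. Over mouse means 5 of 6 tested platelet markers lay below 0, against 50.8% of all genes tested, and 0 passed. Gp6 alone passed elsewhere, rising by 1.02 after Iso in DKO cultures (limma adjusted p = 0.0275). The 6 include Pf4, the chemokine between Ppbp and Cxcl3, at 8.19 in DKO and 8.88 in WT mice. Vwf, also counted as endothelial, was at 4.69 and 4.90. The others were Itga2b (3.66 and 3.70), Gp6 (3.50 and 3.52), Gp9 (5.43 and 5.40) and Treml1 (3.97 and 4.13). The part of platelet RNA in the Ppbp values was not tested. Of 14 macrophage and monocyte markers measured, 8 lay above the median on all arrays and Ptprc, the pan-leukocyte marker CD45, on none; their mean level was 4.11 to 4.26 in untreated WT, 4.00 to 4.20 in Iso-treated WT, 4.15 to 4.30 in untreated DKO and 3.89 to 4.07 in Iso-treated DKO cultures. With Iso the DKO minus WT difference lay below 0 for 9 of the 12 tested macrophage markers, against 49.0% of all genes tested, and 0 passed. The part of macrophages in the Ccl5 and Ccl2 values was not tested. Of neutrophil markers 7 of 11 and of T and NK cell markers 5 of 12 were never above the median. Of 11 fibroblast markers 9 lay above it on all arrays. Between genotypes 8 of the 10 tested fibroblast markers lay below 0 with Iso (49.0% of all genes tested) and 8 over mouse means (50.8%). Their medians were -0.12 and -0.09, 0 passed, and the part of fibroblasts in the chemokine values was not tested.

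Genes were also ranked by how closely they followed the chemokines, as Pearson's r over the 12 arrays with the mean of the 10 chemokines, each centred on its own mean. That mean was highest on Iso-treated WT arrays 1 and 2, at 0.76 and 0.48, and lay between -0.29 and -0.06 on all 6 DKO arrays. The closest were Pdpn (r = 0.944), which encodes podoplanin, Ifi211 (0.932), Asb1 (0.923), Klk1b22 (0.914) and Dusp14 (0.900). The 12 arrays share 6 mice and 4 groups, so these are descriptions only. With Iso, Pdpn differed by -1.14 between genotypes (limma adjusted p = 0.186) and over mouse means by -0.73 (limma adjusted p = 0.0639), and none of the 5 passed in any of the 6 comparisons.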

How the data were processed

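RNA of 12 cultures was hybridised to Affymetrix arrays, 3 in each of 4 groups. The sources used here name neither the array type nor its annotation build. The authors used RMA, per the submitters' processing notes, which give no version, and the deposited values are log2, from 2.25 to 13.8. They were used unchanged. Of 25428 probe sets, 24705 carried a gene symbol. The single symbol with 2 probe sets was taken from the brighter.

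limma 3.58.1 in R 4.3.3 fitted the 4 group means to the 13737 genes above their array's median on at least 3 of 12 arrays (lmFit, eBayes). Contrasts were Iso minus untreated in each genotype, their difference, and the genotype difference in untreated and in treated cultures. A further fit compared the mean of the arrays of each mouse, 3 DKO mice with 3 WT mice. P-values were adjusted by Benjamini-Hochberg over the 13737 genes, and a gene passed under 0.05. Fold changes are 2 to the power of the log2 difference, and errors of differences are limma's SE.

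All 10 chemokines were named whatever their values, with listed genes that passed and the 5 genes of closest pattern. The members and lists were chosen with earlier results of these data known. Ccl21a, Ccl27a, Nfkb1, Chuk, Lyz2 and Gp1ba were not analysed here. The fits were tested on simulated data. Promoters came from RefSeq, GRCm38.p6.

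An untreated and a treated array share each mouse number in the labels, which pairs them. Their deviations from the group means correlated at 0.00733, 0.0864 and 0.130 in DKO and -0.0623, 0.0566 and 0.0109 in WT mice, across genes that are not independent replicates. Alternatives were other filters, scalings and eBayes settings, array weights, the mouse as a block, only the 6 arrays compared, and each array left out.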

Additional observations from a re-analysis of the deposited data

Results flagged for a closer look

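Ccl5 is listed because Iso moved it up in all 3 WT mice (0.75, 0.63 and 0.26, log2) and down in all 3 DKO mice (-0.65, -0.54 and -1.13). The interaction was -1.32 with an SE of 0.22 and did not pass over all genes (limma adjusted p = 0.102, and 0.00955 to 0.359 over 20 other settings, of which 3 passed). Opposite signs in all mice of each genotype, in this direction, were seen for 1.97% of the genes tested. Groups of 3 arrays were too small to check single genes for outlying arrays. Across genes, untreated DKO array 3 stood apart, with a median correlation of 0.969 to the others. The Ccl5 interaction passed without that array (limma adjusted p = 0.0481) and without untreated DKO array 2 (0.0447).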

How the results depend on the processing

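Of the 60 differences of a chemokine in a comparison, 42 were larger than their SE, and 2 of these changed sign, both for Cxcl2, in 3 settings in all and never past the threshold: over mouse means 0.03 without Iso-treated WT array 1 and 0.14 without array 2, and without Iso -0.07 without untreated WT array 2 (ranges -0.46 to 0.14 and -0.07 to 0.49 with 1 array left out). The other 18 were below their SE. The number of chemokines passing over mouse means, 3 in the fit reported, was 1 without a filter, 1 with a filter at the 25th percentile and 5 with array weights, and 0 to 5 (4 without untreated WT array 2) with 1 array or mouse left out. Without Iso the 1 chemokine became 0 without a filter, 0 at the 25th percentile, 2 with array weights, 0 with only the 6 arrays compared, and 0 to 2 with 1 array left out. With Iso the 3 became 2 without a filter and 2 at the 25th percentile, and ranged from 1 to 3 with 1 array left out. In the interaction and the Iso comparison in DKO, 0 became 1 with array weights, and 0 to 1 with 1 array left out; for Iso in WT it was 0 throughout. Of all genes, 40 passed over mouse means, 24 without a filter, 211 with array weights, 67 with the mouse as a random block and 2 to 164 with 1 array or mouse left out (13 without WT mouse 1, 15 without DKO mouse 2 and 91 without DKO mouse 3). With Iso 42 passed, 164 with array weights, 77 with only the 6 arrays and 10 to 163 with 1 array left out. Without Iso 28 passed, 18 without a filter, 698 with array weights, 2 with only the 6 arrays and 7 to 180 with 1 array left out. For the interaction 2 passed, 51 with array weights, 5 with the mouse as a fixed block and 2 to 16 with 1 array left out. For Iso in DKO 7 passed, 17 without a filter, 1109 with array weights, 0 with only the 6 arrays and 0 to 605 with 1 array left out. For Iso in WT 3 passed, 5 with trend and robust settings, 6 with array weights, 5 with the mouse as a random block, 6 with only the 6 arrays and 2 to 8 with 1 array left out. Blocking by mouse changed no chemokine's call other than those of Ccl3 and Ccl5 over mouse means, given above. The settings without a whole mouse were added after seeing the data. The cause of these shifts was not tested; 3 arrays per group limit every comparison, and leaving one out lowers the number further.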
